A study of Mus musculus with 9 samples.

Results

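Ribosomal protein genes were followed in mouse lung after bleomycin, with and without homoharringtonine. They were taken as every gene symbol that starts with Rpl or Rps and a digit in the authors' deposited tables of changed probe sets, leaving out the Rps6k kinases and symbols of pseudogenes that end in -ps. This gave 11 genes, measured by 12 probe sets, of 1908 genes named in those tables: 4 genes of the large subunit (Rpl12, Rpl29, Rpl32 and Rpl41) and 7 symbols of the small subunit (Rps7, Rps12, Rps15, Rps25, Rps27a, Rps27l and Rps3a2). The arrays hold 41345 probe sets, and only 4.86% of them carry a name here, because a name was deposited only for a probe set that the authors called changed. All 11 genes were listed for bleomycin against vehicle and 0 of them for either comparison with homoharringtonine. Their difference between bleomycin and vehicle is therefore what brought them in, and it is given below as a description. Of 79 cytosolic ribosomal protein genes, 68 carried no name in these tables and were not analysed here, so nothing below describes the ribosome as a whole.

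The study measured total RNA of lung tissue from male C57BL/6J mice, 11 weeks old, on Affymetrix arrays, with 3 arrays in each of 3 groups. In the first group, mice received 2 U/kg bleomycin into the trachea at 8 weeks of age and, starting 5 days later, 0.545 mg/kg homoharringtonine into the abdomen 2 times a week for 15 days (called homoharringtonine lungs below). In the second, labelled bleomycin, the same dose of bleomycin was given. The third was labelled vehicle-treated. The age at instillation (8 weeks) and the injection schedule are recorded as the same in all 3 groups. The protocol names phosphate-buffered saline as the alternative to bleomycin and vehicle as the alternative to homoharringtonine, without saying group by group which was given. The samples of a group are numbered without a statement that each is a separate animal, so p-values measure only the spread between these samples. As tissue markers, Sftpa1 (a surfactant protein), Lamp3 (a marker of alveolar type 2 cells) and Cyp2f2 (a club cell enzyme) lay far above the median probe set on all 9 arrays. The array medians ran from 4.49 to 4.57 on the log2 scale, and 0 pairs of arrays were identical.

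Cytosolic ribosomal proteins clothe the ribosomal RNAs of the small and large subunits, and cells make them in nearly equal amounts. Their messenger RNAs are abundant and begin with a cytosine followed by an unbroken stretch of pyrimidines, the 5′ terminal oligopyrimidine (TOP) motif, through which the mTOR kinase and Larp1 set their translation and stability. Homoharringtonine (omacetaxine) is a plant alkaloid that binds the large subunit at the peptidyl transferase centre and blocks elongation just after initiation. Bleomycin breaks DNA and is widely used to bring about inflammation and fibrosis in rodent lungs.

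The stretches around the annotated start sites are shown for the pyrimidine runs that they hold. RefSeq (GRCm38.p6) start windows were given for 7 of the 11 genes, and not for Rpl29, Rpl32, Rps27a and Rps3a2. Each line gives 30 bases, 5′ to 3′ on the gene's strand, with the longest run of 7 or more pyrimidines that begins with C in capitals (in Rps27l the first of 2 runs of 9 bases, the other following after an a).
Rpl12, chr2:32961732-32961761, plus strand: ggaggaggcaacggtgcaaCTTTCTTCggt
Rpl41, chr10:128549119-128549148, minus strand: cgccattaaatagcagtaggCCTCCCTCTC
Rps12, chr10:23787180-23787209, minus strand: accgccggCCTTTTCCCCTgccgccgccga
Rps15, chr10:80292448-80292477, plus strand: agcccgtaCTTCCTTTTCCgagtaaccgcc
Rps25, chr9:44407684-44407713, plus strand: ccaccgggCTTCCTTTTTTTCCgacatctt
Rps27l, chr9:66946056-66946085, plus strand: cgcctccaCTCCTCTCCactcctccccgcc
Rps7, chr12:28635910-28635939, minus strand: tgtccccaCCTCTTTTCTTCCgccacccgg
Between 30 bases before and 49 bases after an annotated start, 7 of the 8 windows of these genes (87.5%) held such a run, and so did 51 of 68 windows (75%) of the 58 cytosolic ribosomal protein genes in the RefSeq table and 33.4% of 32851 windows of all genes. Counted by gene, these were 7 of 7, 46 of 58 and 10005 of 27025. The window without a run is that of a further annotated start of Rps27l. The run lay before the annotated start in Rps25 (positions -22 to -9) and Rps27l (-22 to -14) and after it in the other genes shown. Among those it began between position 8 (Rps12) and position 40 (Rpl41, where it reaches the last base given). The annotated start is not a measured cap site in these lungs, and no printed run begins at it. Whether these runs are TOP motifs was not tested.

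The upstream sequence is shown for the genes that hold an ETS core (CCGGAAG on either strand), the motif bound by GABP and related factors that recurs in mammalian ribosomal protein promoters. Each line gives the 120 bases before the annotated start, with the core in capitals.
Rpl41, chr10:128549169-128549288, minus strand: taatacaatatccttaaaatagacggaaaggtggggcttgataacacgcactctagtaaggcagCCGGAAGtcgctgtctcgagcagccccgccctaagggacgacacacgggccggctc
Rps25, chr9:44407594-44407713, plus strand: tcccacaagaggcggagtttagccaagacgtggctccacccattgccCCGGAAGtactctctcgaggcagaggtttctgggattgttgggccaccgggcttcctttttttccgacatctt
Rps7, chr12:28635954-28636073, minus strand: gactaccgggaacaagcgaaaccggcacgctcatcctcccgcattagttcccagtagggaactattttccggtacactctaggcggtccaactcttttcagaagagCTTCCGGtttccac
Within 300 bases around the start (250 before and 50 after), 4 of the 8 windows (50%), from 4 of the 7 genes, held the core: Rpl41, Rps25 and Rps7 at positions -56, -73 and -14, and Rps27l outside the stretch printed. The share was 36.8% of the 68 windows of cytosolic ribosomal protein genes (24 of 58 genes) and 8.86% of all windows (2683 of 27025 genes). Searched on both strands of the same windows, 3 further motifs were found in 0 of the 8 windows. The E-box (CACGTG), to which Myc binds, was held by 11.8% of the windows of cytosolic ribosomal protein genes and 7.15% of all windows, the TATA box (TATAAA) by 8.82% and 13.6%, and the YY1 core (GCCATNTT) by 23.5% and 6.05%. A match is a string of letters and was not tested for binding.

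What a probe set reads matters in this family, because ribosomal protein genes have many processed copies in the genome. The files place the probe sets of 8 genes on the gene itself. They place those of Rpl12, Rpl41 and Rps27a elsewhere: the Rpl12 probe set on chromosome 10 (29698372 to 29699379, minus strand) with the gene on chromosome 2, the Rpl41 probe set on chromosome 14 (105681828 to 105682204, plus strand) with the gene on chromosome 10, and the Rps27a probe set on chromosome 9 (83409638 to 83410163, plus strand) with the gene on chromosome 11. The files name no build for these positions, and their ends equal those of RefSeq GRCm38.p6 for Rps7, Rps15 and Rps25. The files mark 6 of the 11 probe sets (54.5%) as cross-hybridisation type 3, against 17.9% of all listed probe sets: Rpl12, Rpl32, Rpl41, Rps12, Rps27a and Rps3a2. For these 6, signal from the gene and from near-identical copies could not be told apart.

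All values below are log2 signals as deposited. They were compared with limma, fitted to all 41345 probe sets on the 9 arrays, with Benjamini-Hochberg adjustment over all probe sets and a threshold of 0.05. Differences are on the log2 scale, so that 1 is a factor of 2. A signal of an array depends on its probes, so signals were not compared between genes.

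In the large subunit, all 4 genes were higher in bleomycin than in vehicle lungs. The homoharringtonine mean of each gene lay between its bleomycin and vehicle means. Rpl32, a component of the large subunit often used as a reference gene, had log2 signals of 8.36, 8.10 and 8.37 in homoharringtonine lungs, 8.69, 9.05 and 9.08 in bleomycin lungs, and 8.06, 8.09 and 7.89 in vehicle lungs (chromosome 6, 115805505 to 115808747, minus strand). Every bleomycin array was above every array of the other groups, while the lowest homoharringtonine array and the highest vehicle array were nearly level. The difference of bleomycin over vehicle was 0.93 ± 0.14 (SE, n = 3 each), a 1.90-fold higher signal.

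Rpl29, a large-subunit protein also described as a heparin-binding protein, had 6.17, 6.31 and 6.57 in homoharringtonine lungs, 6.47, 7.22 and 7.10 in bleomycin lungs, and 5.83, 5.68 and 5.90 in vehicle lungs (chromosome 9, 106429454 to 106431568, plus strand). Bleomycin replicate 1 lay below homoharringtonine replicate 3, so these groups overlapped, and both were above all vehicle arrays. Its bleomycin-over-vehicle difference of 1.12 ± 0.20 (2.18-fold) was the largest of the 11.

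Rpl12, which forms the base of the stalk that receives translation factors, had 9.27, 9.06 and 9.57 in homoharringtonine lungs, 9.74, 10.05 and 10.08 in bleomycin lungs, and 9.26, 9.20 and 9.33 in vehicle lungs. The homoharringtonine arrays overlapped the vehicle arrays and not the bleomycin arrays. Rpl41, a very short peptide at the interface of the subunits, had 10.34, 10.15 and 10.30 in homoharringtonine lungs, 10.65, 10.65 and 10.88 in bleomycin lungs, and 10.08, 9.96 and 9.54 in vehicle lungs. Its 3 groups did not overlap. Over vehicle, the bleomycin difference was 0.69 ± 0.15 for Rpl12 and 0.87 ± 0.15 for Rpl41, and neither probe set lies on its own gene.

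In the small subunit, Rps25, which some viral internal ribosome entry sites require, had 7.76, 8.09 and 7.83 in homoharringtonine lungs, 8.17, 8.68 and 8.41 in bleomycin lungs, and 7.67, 7.59 and 7.91 in vehicle lungs (chromosome 9, 44407714 to 44410406, plus strand). The homoharringtonine arrays were all below the bleomycin arrays and overlapped the vehicle arrays. Rps15, a protein of the head of the small subunit, had 3.67, 3.39 and 3.67 in homoharringtonine lungs, 3.76, 4.56 and 4.25 in bleomycin lungs, and 3.05, 3.48 and 3.16 in vehicle lungs (chromosome 10, 80292431 to 80294114, plus strand). These signals are dim, with vehicle values around the lower quartile of the arrays (3.21 to 3.24), and the homoharringtonine and vehicle arrays overlapped. The bleomycin-over-vehicle difference was 0.70 ± 0.16 for Rps25 and 0.96 ± 0.21 for Rps15.

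Rps7, which binds the p53 regulator Mdm2 and is among the genes mutated in Diamond-Blackfan anaemia, had 5.07, 5.11 and 5.47 in homoharringtonine lungs, 5.28, 6.17 and 5.54 in bleomycin lungs, and 4.96, 4.57 and 4.67 in vehicle lungs (chromosome 12, 28630847 to 28635953, minus strand). Homoharringtonine and bleomycin arrays overlapped, and both groups lay above vehicle. Rps12, a small-subunit protein that takes part in cell competition in Drosophila, had 10.09, 10.35 and 10.34 in homoharringtonine lungs, 10.34, 10.68 and 10.64 in bleomycin lungs, and 9.97, 9.89 and 9.77 in vehicle lungs (chromosome 10, 23785184 to 23787209, minus strand). Here too the homoharringtonine and bleomycin arrays overlapped at 1 array each. Bleomycin over vehicle was 0.93 ± 0.23 for Rps7 and 0.67 ± 0.13 for Rps12. The second Rps12 probe set, off the gene on chromosome 19, gave 0.77. On that probe set the homoharringtonine arrays (8.48, 8.38 and 8.71) were all below the bleomycin arrays (8.79, 9.12 and 9.09). Homoharringtonine over bleomycin was -0.47 there, with an unadjusted limma p of 0.00648 and an adjusted p of 0.224.

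Rps27a encodes a fusion of ubiquitin with a small-subunit protein. It had 9.09, 9.39 and 9.79 in homoharringtonine lungs, 9.48, 9.67 and 9.78 in bleomycin lungs, and 9.08, 8.93 and 8.90 in vehicle lungs. The homoharringtonine arrays spread from just above the highest vehicle array to just above the highest bleomycin array. Rps27l, a paralog of Rps27 that p53 induces, had 6.43, 6.55 and 6.68 in homoharringtonine lungs, 6.74, 6.78 and 6.82 in bleomycin lungs, and 6.03, 5.96 and 5.87 in vehicle lungs (chromosome 9, 66946086 to 66949516, plus strand). Its 3 groups did not overlap, and its spread was the smallest of the 11 genes (SE of a difference 0.10). Over vehicle, bleomycin lungs were higher by 0.68 ± 0.17 for Rps27a and by 0.83 ± 0.10 for Rps27l.

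Rps3a2 is a processed pseudogene of the Rps3a family, per the files and RefSeq, and its probe set is of cross-hybridisation type 3. It had 6.32, 7.40 and 7.33 in homoharringtonine lungs, 7.22, 7.25 and 7.45 in bleomycin lungs, and 6.66, 6.60 and 6.44 in vehicle lungs (chromosome 14, 88123014 to 88123808, minus strand). Homoharringtonine replicate 1 was below every vehicle array, while the other 2 were at the level of the bleomycin arrays. The difference of bleomycin over vehicle was 0.74 ± 0.26.

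**Figure D1:**
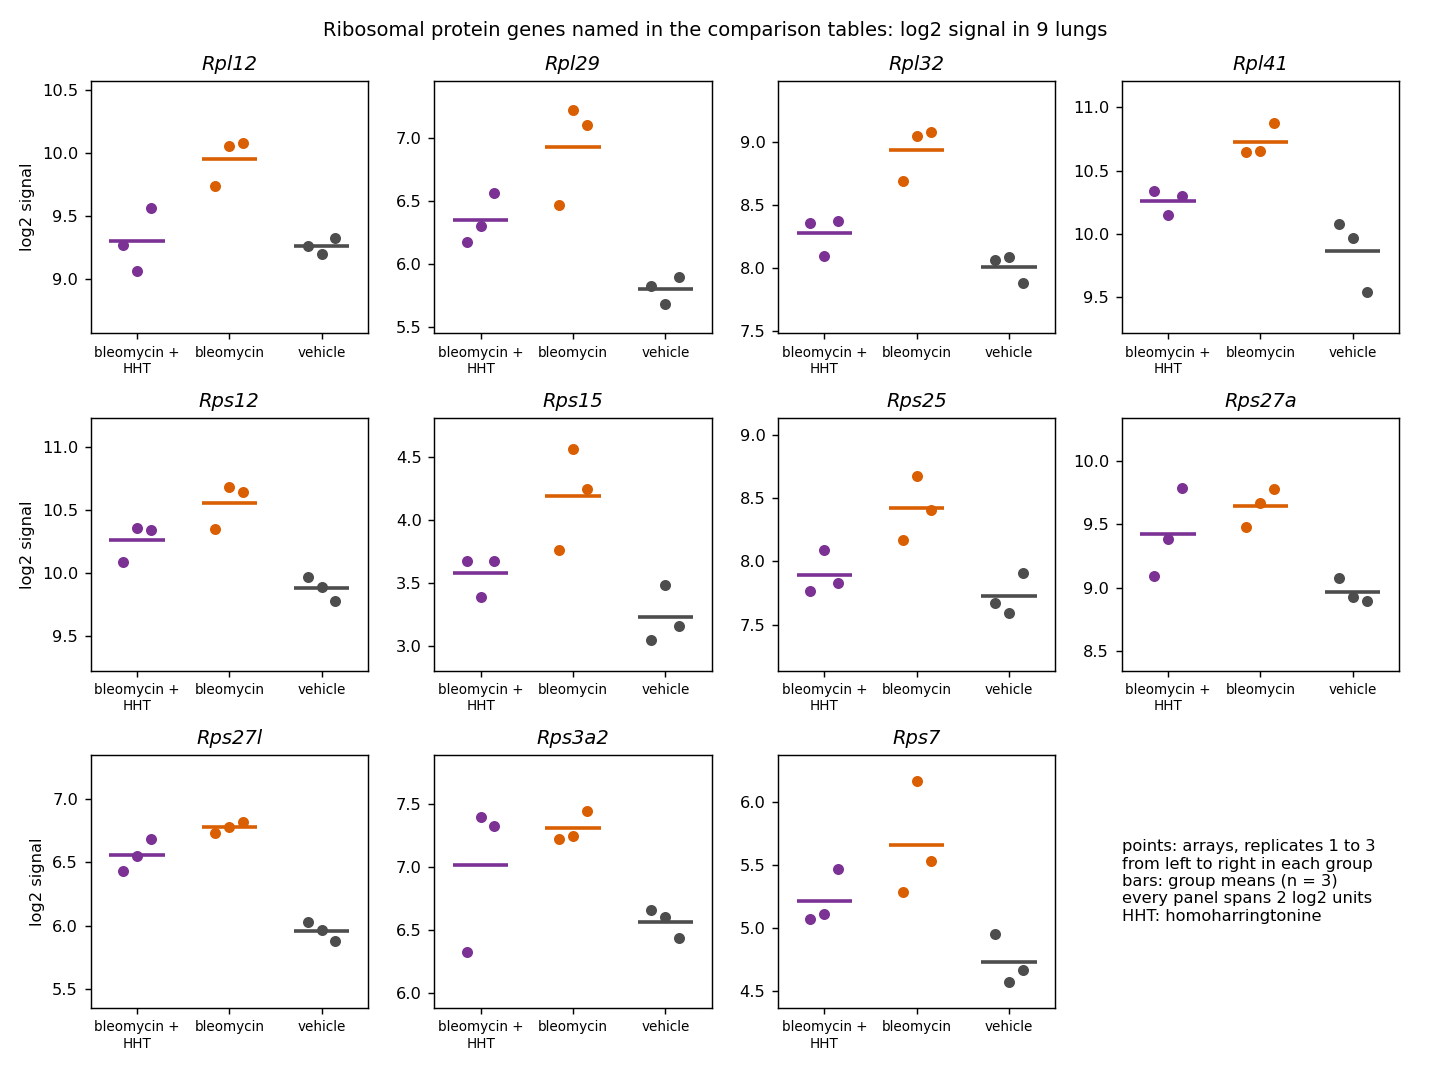
Log2 signal of the 11 ribosomal protein genes (vertical axis, each panel spanning 2 log2 units) in homoharringtonine, bleomycin and vehicle lungs, with 1 point per array and a bar at the mean of 3 arrays. The bleomycin arrays lie above all vehicle arrays in each of the 11 panels, and Rps3a2 shows the single homoharringtonine array at 6.32.

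Across the 11 genes, bleomycin over vehicle ran from 0.67 to 1.12 with a median of 0.83, against a median of 0.015 over all probe sets. By limma, 10 of 11 passed an adjusted p of 0.05, with adjusted p from 0.00269 (Rps27l) to 0.0489 (Rps27a), and Rps3a2 did not (adjusted p 0.123, and 0.0106 without homoharringtonine replicate 1). Without bleomycin replicate 2, bleomycin replicate 3, vehicle replicate 2 or vehicle replicate 3, only 4 of 11 passed, and 5 without vehicle replicate 1. The background is 3.37% of all probe sets called higher (7.78% in either direction), 13.9% with bleomycin arrays all above vehicle arrays, against 11 of 11 genes, and 52.6% with a difference above 0. Since the authors' list for this same contrast chose the genes, these counts are no evidence about the family. Of the 811 named genes that the authors listed as higher with bleomycin, the median was 0.93.

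In the authors' deposited table for bleomycin over vehicle, the folds of the 11 genes ran from 1.60 (Rps12) to 2.18 (Rpl29). Adjusted p-values in that table, from a local pooled error (LPE) statistic, run up to 0.0498. Nearest to its limit on p were Rps3a2 with 0.0352 and Rps7 with 0.0346 in the authors' deposited table. Probe sets just outside the limits carry no name here.

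Homoharringtonine over bleomycin was below 0 in 11 of 11 genes, against 51% of all probe sets, with a median of -0.47 and a range from -0.67 (Rpl32) to -0.22 (Rps27a and Rps27l). No gene passed the test: limma called 0 of 11, against 0.0943% of all probe sets, with adjusted p from 0.121 (Rpl32) to 0.730 (Rps3a2). At an unadjusted limma p under 0.05, 8 of 11 were lower, against 6.16% of all probe sets. The 3 others were Rps7, Rps27a and Rps3a2. The homoharringtonine arrays were all below the bleomycin arrays in 6 genes (Rpl12, Rpl32, Rpl41, Rps15, Rps25 and Rps27l), against 7.79% of all probe sets. The bleomycin arrays of this comparison are the ones that chose the genes, so both the side of 0 and these shares are open to that choice. The 426 other named genes that the authors listed as higher with bleomycin, and that lie in the same range of bleomycin over vehicle, had a median of -0.42 for homoharringtonine over bleomycin. Of these 426, 227 were lower at an unadjusted limma p under 0.05, and 208 had all homoharringtonine arrays below the bleomycin arrays.

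The largest differences between homoharringtonine and bleomycin lungs were those of Rpl32 and Rpl12. Rpl32 averaged 8.28 ± 0.15 in homoharringtonine lungs and 8.94 ± 0.22 in bleomycin lungs (SD, n = 3 each), a difference of -0.67 with a 95% interval from -0.98 to -0.35. Rpl12 averaged 9.30 ± 0.25 in homoharringtonine lungs and 9.96 ± 0.19 in bleomycin lungs, a difference of -0.65 with an interval from -0.99 to -0.32. The limma adjusted p was 0.121 for Rpl32 and 0.145 for Rpl12. At the other end, Rps27a differed by -0.22 with an interval from -0.62 to 0.17, which holds 0 as well as much of the range of the other genes.

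Homoharringtonine over vehicle was above 0 in 11 of 11 genes, against 50.6% of all probe sets, with a median of 0.40 and a range from 0.04 (Rpl12) to 0.60 (Rps27l). Rps27l passed the test: it averaged 6.56 ± 0.13 in homoharringtonine lungs and 5.95 ± 0.08 in vehicle lungs (SD, n = 3 each), a 1.52-fold difference with a limma adjusted p of 0.0457. This was 1 of 11 genes, against 0.193% of all probe sets called higher and 0.506% called in either direction. The call was lost on leaving out any of the 9 arrays in turn, with adjusted p between 0.0549 and 0.184. It was lost as well in a fit on these 6 arrays alone (0 of 11 genes called). The vehicle arrays are among those that chose the genes, so this p is not independent of the choice.

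Of the other genes, 4 reached an unadjusted limma p under 0.05 in homoharringtonine against vehicle lungs: Rps12 (0.38, adjusted p 0.199), Rpl29 (0.54, adjusted p 0.236), Rpl41 (0.40, adjusted p 0.247) and Rps27a (0.46, adjusted p 0.252). That makes 5 with Rps27l, against 6.93% of all probe sets. The second probe set of Rps12 gave 0.30 with an unadjusted limma p of 0.0516. The homoharringtonine arrays were all above the vehicle arrays in 7 genes: Rpl29, Rpl32, Rpl41, Rps7, Rps12, Rps27a and Rps27l. The background for such a separation is 9.46% of probe sets. Among the 426 like-listed genes, 232 showed such a separation and 237 were higher at an unadjusted limma p under 0.05. Their median was 0.45. The vehicle arrays are among those that chose the genes, so these shares too are open to that choice.

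**Figure D2:**
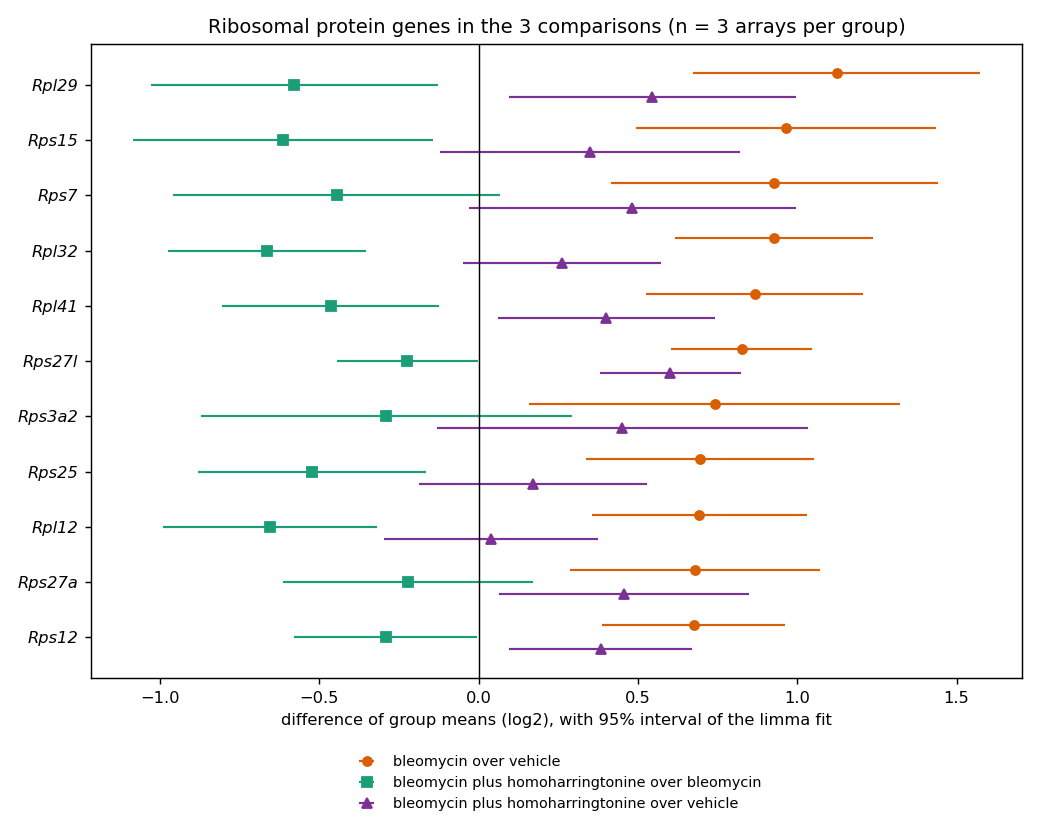
Difference of group means (horizontal axis, log2) for each of the 11 genes, ordered by bleomycin over vehicle, with 95% intervals of the limma fit. Circles are bleomycin over vehicle, squares homoharringtonine over bleomycin and triangles homoharringtonine over vehicle; all squares lie left of 0 and all triangles right of it, with many intervals that cross 0.

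Set against the span between bleomycin and vehicle, the homoharringtonine mean stood lowest for Rpl12, at 5.49% of the way from the vehicle mean to the bleomycin mean. Rps25 stood at 24.5%, Rpl32 at 28.2% and Rps15 at 36.3%. Rpl41, Rpl29, Rps7 and Rps12 lay between 46.3% and 56.7%, and the median was 48.5% (Rpl29). Rps3a2 at 60.9%, Rps27a at 67.2% and Rps27l at 72.8% stood nearest to the bleomycin mean. These percentages divide one difference by another that shares its vehicle arrays, and whether they differ between genes was not tested.

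Among arrays of the same group, the genes moved together in part. Bleomycin replicate 1 had the lowest of the 3 bleomycin values in 11 of 11 genes, while it was lowest in 54.6% of the 811 listed genes. Taken over the 11 genes, the mean log2 signal minus the vehicle mean was 0.24, 0.35 and 0.54 in homoharringtonine replicates 1 to 3, 0.60, 0.98 and 0.91 in bleomycin replicates 1 to 3, and 0.06, -0.003 and -0.06 in vehicle replicates 1 to 3. Homoharringtonine replicate 3 was therefore close to bleomycin replicate 1. Homoharringtonine replicate 3 was the highest of its group in 7 of 11 genes and in 64.1% of the 811 listed genes. After the group means were taken out, the median Pearson r over the 55 pairs of genes was 0.49, with a range from -0.53 to 0.95, as a description over 9 arrays that share their RNA and their scaling. Without bleomycin replicate 1, the median of homoharringtonine over bleomycin was -0.63 in place of -0.47, and 0 genes were called.

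**Figure D3:**
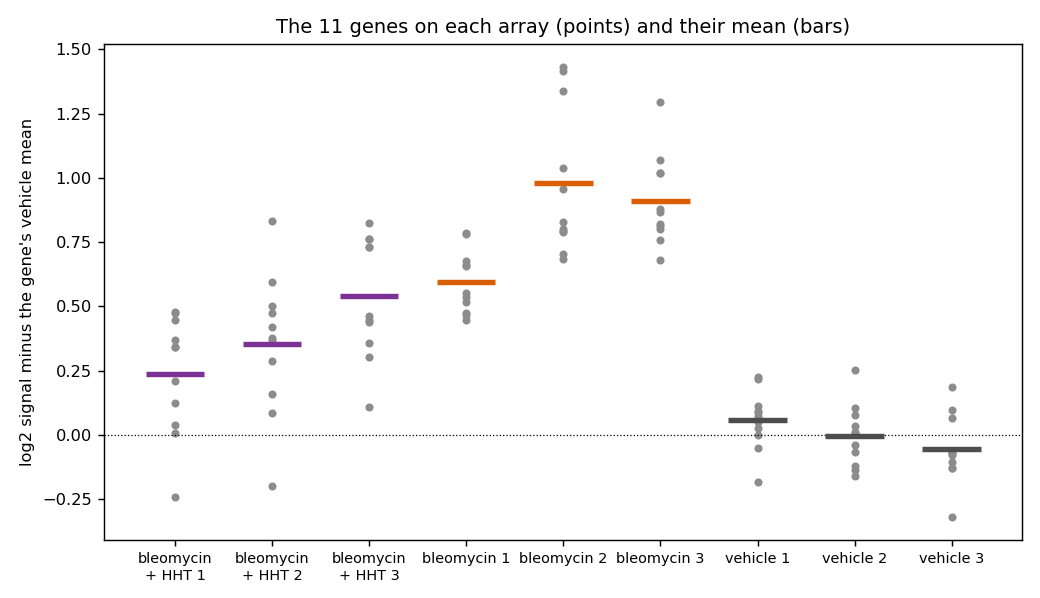
Log2 signal minus the vehicle mean of the gene (vertical axis) for the 11 genes (points) on each of the 9 arrays, with a bar at their mean. The bars stand at 0.24, 0.35 and 0.54 in homoharringtonine, 0.60, 0.98 and 0.91 in bleomycin and 0.06, -0.003 and -0.06 in vehicle lungs.

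Markers of several cell types also differed between these groups, and not all in the order of the ribosomal protein genes. The 14 named markers of monocyte-derived macrophages, out of 16 listed, summed on the linear scale to between 3376 and 4812 in homoharringtonine lungs, between 6696 and 9737 in bleomycin lungs and between 1219 and 1266 in vehicle lungs, and 14 of 14 were called higher in bleomycin than in vehicle lungs. The 8 named markers of fibroblasts and myofibroblasts out of 10 summed to 3053 to 4564, 6638 to 8528 and 1901 to 2029 in homoharringtonine, bleomycin and vehicle lungs, with 7 called higher and 1 called lower in bleomycin than in vehicle lungs. Neutrophil markers, 5 named of 8, summed to 525 to 811, 884 to 1139 and 345 to 410.0 in the same order, with 3 called higher. The 6 named markers of lung epithelium out of 15 summed to 5505 to 6991 in homoharringtonine, 3342 to 4599 in bleomycin and 8816 to 9732 in vehicle lungs, with 5 called lower in bleomycin than in vehicle lungs. The 11 named markers of lung endothelium out of 12 summed to 3964 to 5501, 2895 to 3684 and 7502 to 7773 in the same order, with 9 called lower. B and plasma cell markers, 6 named of 9, summed to 865 to 1276, 299 to 643 and 625 to 706, with 4 called lower. A linear sum weighs the brightest probe sets most. While the sum of these 6 was higher in homoharringtonine than in vehicle lungs, their median log2 difference was -0.79, with 1 called lower and 0 higher. T and NK cell markers, 3 named of 8 (Ncr1, Gzma and Nkg7), summed to 62.6 to 71.8, 44.0 to 50.8 and 109.5 to 191, with 3 called lower. Cd3e, Cd3d, Cd4 and Cd8a of that list carried no name, so T cells in general were not read. Cycling cell markers, 3 named of 10, summed to 206 to 315, 202 to 288 and 107 to 143, with 3 called higher. For homoharringtonine over vehicle, 9 macrophage, 2 fibroblast, 1 neutrophil and 1 cycling cell marker were called higher. Called lower there were 4 endothelial markers and 1 T and NK cell marker. For homoharringtonine over bleomycin, 1 B cell and 1 endothelial marker were called higher and 1 macrophage marker lower. Over all probe sets, 3.37% were called higher for bleomycin over vehicle and 7.78% in either direction. The share in either direction was 0.506% for homoharringtonine over vehicle and 0.0943% for homoharringtonine over bleomycin. A marker carries a name only if the authors listed it as changed, so these counts are no evidence about a cell type.

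Bleomycin replicate 1 had the highest epithelial sum of its group, 4599, against 3342 and 3617, while its macrophage sum (7417) and its fibroblast sum (7574) lay between those of replicate 2 (9737 and 8528) and replicate 3 (6696 and 6638). Homoharringtonine replicate 3 had the lowest epithelial sum, 5505, the highest macrophage sum, 4812, and the highest fibroblast sum, 4564, of its group. An array signal is never 0, so no marker is listed as absent. In bulk lung RNA, more cells of a type and more of an RNA per cell cannot be told apart, and the part of cell makeup in the ribosomal protein signals was not tested.

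Processed copies gave a second reading of the family. The tables name 10 ribosomal protein pseudogenes with symbols ending in -ps, on 16 probe sets with 10 distinct sets of values. They were above 0 for bleomycin over vehicle in 10 of 10, with a median of 0.80 and a range from 0.60 to 1.02, and 9 were called, against 3.37% of all probe sets called higher. For homoharringtonine over bleomycin 10 of 10 were below 0 with a median of -0.45, and for homoharringtonine over vehicle 10 of 10 were above 0 with a median of 0.35. By limma 0 were called in either of these, where 8 and 6 of the 10 reached an unadjusted p under 0.05, against 6.16% of all probe sets lower in the first and 6.93% higher in the second. The copies were named through the same list of bleomycin against vehicle and may read the same messages, so they add no separate support.

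Rpsa and Rplp0, the other 2 cytosolic ribosomal proteins with a name here, fall outside the rule because of their symbols. Rpsa, a small-subunit protein also known as the laminin receptor, averaged 8.85 in homoharringtonine, 9.30 in bleomycin and 8.49 in vehicle lungs. Bleomycin over vehicle was 0.82 ± 0.14. Rplp0, a protein of the acidic stalk, averaged 5.02, 5.49 and 4.69 in homoharringtonine, bleomycin and vehicle lungs, with a bleomycin-over-vehicle difference of 0.80 ± 0.17. Both were called for bleomycin over vehicle (limma adjusted p 0.0113 for Rpsa and 0.0288 for Rplp0) and neither in the comparisons with homoharringtonine. Of all probe sets, 3.37% were called higher for bleomycin over vehicle, the contrast through whose list both were named. Mrpl20 and Mrpl32, proteins of the mitochondrial ribosome, were higher in bleomycin than in vehicle lungs by 0.94 and 0.87.

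Around the ribosome, names were as sparse. Of 94 genes of ribosome biogenesis 5 were named, and 4 were called higher in bleomycin than in vehicle lungs: Eif6 (0.71), which keeps the subunits apart, Taf1d (0.69), of the RNA polymerase I machinery, Ncl (0.63), the nucleolar protein nucleolin, and Nhp2 (0.63), of the small nucleolar particles. The fifth, Gnl3 (nucleostemin), gave 0.70 with a limma adjusted p of 0.0676. Of 57 translation factors 5 were named. Eif5a2 (0.79), Eif3i (0.80) and Eif2b2 (0.84) were called higher and Eif4a2, an RNA helicase of the cap-binding complex, was called lower (-1.05, limma adjusted p 0.00411). The fifth, Eif1ax, gave 0.59 with a limma adjusted p of 0.0583. Eif4a2 is thus a named gene of translation that ran against the ribosomal protein genes. Its means were 8.09 in homoharringtonine, 7.35 in bleomycin and 8.40 in vehicle lungs. For bleomycin over vehicle, 3.37% of all probe sets were called higher and 7.78% in either direction. Each of these genes was named through the authors' list for this contrast, so the counts do not describe the pathways.

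Among other transcripts with a TOP motif, 2 of 20 were named, both hosts of small nucleolar RNAs. Snhg6 was higher in bleomycin than in vehicle lungs by 1.80 and Snhg1 by 0.72, both called. Snhg6 averaged 7.20 in homoharringtonine, 7.92 in bleomycin and 6.12 in vehicle lungs, and the authors' deposited table lists it for homoharringtonine against vehicle too, while its limma adjusted p there was 0.0765. Of 22 tRNA synthetase genes, Gars was named (0.59, called). Of 26 genes that control ribosomal protein synthesis 3 were named, all called higher with bleomycin: Ddit4 (1.97) and Sesn2 (0.64), stress-induced inhibitors of mTOR complex 1, and Myc (1.25), a driver of ribosome production. Ddit4 averaged 5.98 in homoharringtonine, 7.26 in bleomycin and 5.28 in vehicle lungs, and the authors' deposited table lists it for homoharringtonine against bleomycin as well (limma adjusted p 0.0722). Of the 20 named genes of these lists outside the rule, limma called 0 in either comparison with homoharringtonine, while 15 were lower and 1 (Eif4a2) higher at an unadjusted p under 0.05 for homoharringtonine over bleomycin, and 7 were higher for homoharringtonine over vehicle. Over all probe sets 6.16% were lower in the first and 6.93% higher in the second. For bleomycin over vehicle, the share of all probe sets called was 3.37% higher and 7.78% in either direction. The names again come from lists of changed probe sets, so the counts are of named genes and not of the pathways.

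**Figure D4:**
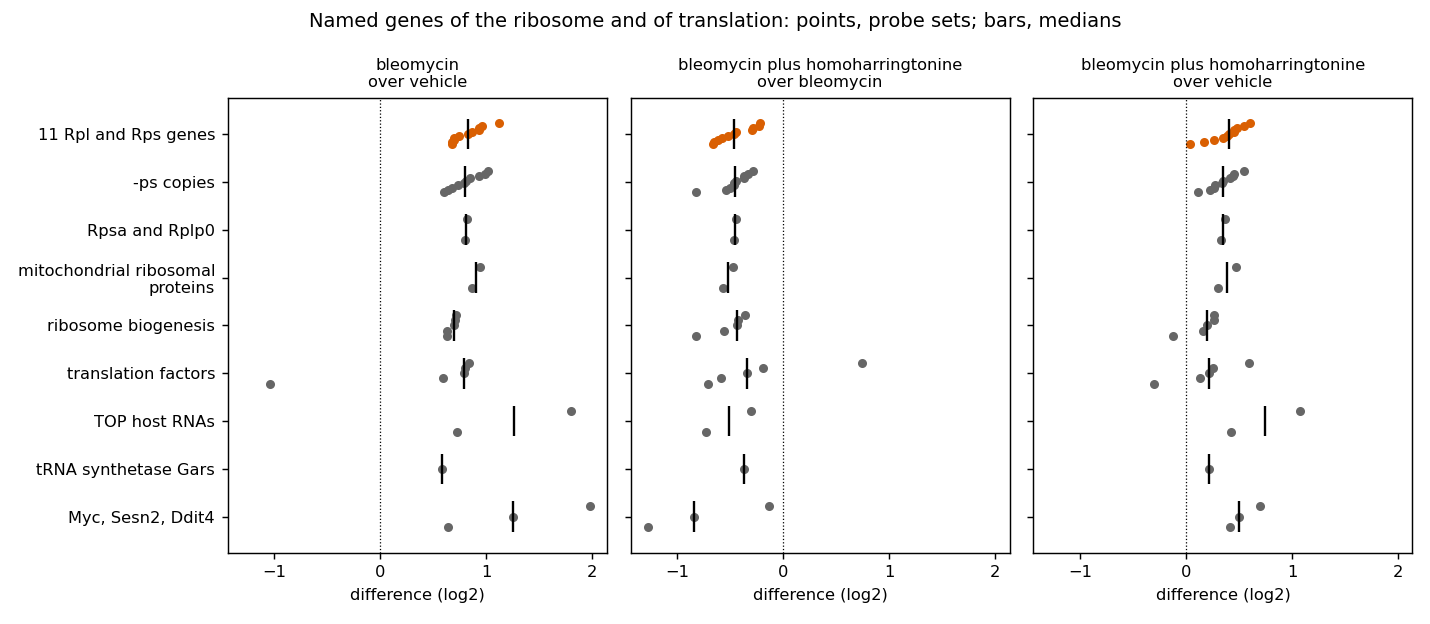
Log2 difference (horizontal axis) of the 11 ribosomal protein genes, 10 pseudogene copies and the named genes of each list in bleomycin over vehicle (left), homoharringtonine over bleomycin (middle) and homoharringtonine over vehicle (right), with a bar at the median of each row. Medians of the 11 genes and of the copies are 0.83 and 0.80, -0.47 and -0.45, and 0.40 and 0.35 in the 3 panels, and the translation factor left of 0 at -1.05 is Eif4a2.

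Enrichment as the authors computed it differed between gene catalogues. The authors' deposited table of KEGG pathways for bleomycin over vehicle gives 14 of 176 genes for Ribosome, with an adjusted p of 0.00327 and rank 117 of 304 pathways. Those 14 are 10 of the genes above (without Rps3a2), Rpsa, Rplp0, Mrpl20 and Mrpl32. For ribosome biogenesis the authors' deposited table gives 6 of 124 genes with an adjusted p of 0.467. In the authors' deposited table of Gene Ontology terms, cytosolic ribosome holds 8 of 114 genes with an adjusted p of 0.641, and structural constituent of ribosome 8 of 176 with 0.883.

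Rpl32 was set against the other 1907 named genes by Pearson r over the 9 arrays, as a measure of likeness that takes in the differences between groups. The most alike were Pkm (0.997), the glycolytic pyruvate kinase, Lgals3 (0.990), galectin-3, Gadd45g (0.987), a stress-induced gene, Ssr4 (0.984), of the translocon, and Psmd8 (0.980), of the proteasome. The most opposed were Mtcl1 (-0.991), Ushbp1 (-0.989), Ppp1r3c (-0.989), Cped1 (-0.982) and A330076H08Rik (-0.982). The other ribosomal protein genes ranked from 91 (Rps15, 0.945) to 728 (Rps3a2, 0.610). In Pkm, log2 signals were 8.94, 8.71 and 8.94 in homoharringtonine lungs, 9.35, 9.61 and 9.67 in bleomycin lungs, and 8.62, 8.66 and 8.50 in vehicle lungs. Bleomycin replicate 1 was the lowest of its group in Pkm too. Because Pkm was picked for its likeness to Rpl32 on these same arrays, this adds no separate support.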

How the data were processed

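The authors hybridised lung RNA to Affymetrix arrays and deposited log2 signals per probe set, with fold changes (ratios), p-values and a local pooled error score in tables of changed probe sets, per the file headers. The submitters' processing notes name Affymetrix Power Tools and R 3.5.1. Not given in the sources used here are the background correction, the normalization and the genome build. Signals in those lists equal the value table within 1e-06.

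Here the log2 signals were used as deposited, with no filter. limma 3.58.1 (R 4.3.3) fitted 3 group means to 41345 probe sets on 9 arrays, with p-values adjusted by Benjamini-Hochberg over all probe sets. The fit was also run on simulated data with independent noise for each probe set. Those data do not reproduce deviations that genes share on an array. With 3 arrays a group, the number of arrays limits the precision. No batch or scan date is given.

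For a gene with several probe sets, the one with the highest mean was used. Other named genes are the members of each list that passed the test, at most the 4 with the smallest p per list and comparison, and the 5 genes most and least like Rpl32. Gnl3, Eif1ax and the means of Eif4a2, Snhg6, Ddit4 and Pkm were added after their values were seen. The genes and lists were chosen with earlier results of these data known. Alternatives were a fit on 2 groups, a filter on dim probe sets, median centring of the arrays, quantile normalization, a trended prior, weights per array, a replicate block and leaving out each array. The alternative with only genes whose probe set lies on the gene was chosen after seeing the data.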

Additional observations from a re-analysis of the deposited data

How the results depend on the processing

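The medians of the 11 ribosomal protein genes kept their direction in all alternatives run, but the calls did not. For bleomycin over vehicle 10 genes were called. Leaving out each array in turn gave 4 to 10, with 4 without bleomycin replicate 2, bleomycin replicate 3, vehicle replicate 2 or vehicle replicate 3, and 5 without vehicle replicate 1. The other settings gave 7 of 8 (only genes whose probe set lies on the gene) to 10. Rpl32, Rpl41 and Rps27l were called in all 9 fits that left out an array. The median ran from 0.77 to 0.86 over those fits, 0.77 with quantile normalization and 0.86 with median centring. Rps3a2 was called in the fit on 2 groups (limma adjusted p 0.0208) and without homoharringtonine replicate 1 (0.0106). For homoharringtonine over bleomycin 0 genes were called by limma in every setting (8 at an unadjusted p under 0.05 in the fit as reported), and leaving out an array moved the median between -0.63 and -0.39. For homoharringtonine over vehicle, the 1 call (Rps27l) became 0 in the fit on 2 groups, 0 with the replicate block and 0 in each of the 9 fits that left out an array, and the median ran from 0.30 to 0.50. Differences that reversed were Rps3a2, homoharringtonine over bleomycin (0.056 without homoharringtonine replicate 1, in a range from -0.48 to 0.056 over the arrays left out), and Rpl12, homoharringtonine over vehicle (-0.10 without homoharringtonine replicate 3, in a range from -0.10 to 0.16). Neither was called. The cause was not tested. Replicate numbers recur across groups, but same-numbered arrays did not deviate together (correlations of their deviations from the group means from -0.14 to 0.09) and were not taken as pairs. With the replicate block, 8 genes were called for bleomycin over vehicle and 0 for each comparison with homoharringtonine. Over all probe sets, leaving out an array moved the calls from 3218 to between 1136 and 3396 for bleomycin over vehicle, from 39 to between 0 and 181 for homoharringtonine over bleomycin, and from 209 to between 7 and 257 for homoharringtonine over vehicle. In homoharringtonine over bleomycin, 0 probe sets were called in the fit on 2 groups and with the block, 16 with array weights and 239 with only probe sets above the median signal. In homoharringtonine over vehicle, 385 were called with array weights, 668 with that filter and 22 with the block. Of 528 results for single genes, 475 kept their direction and side of the threshold, 49 lost a call and 2 gained one. In the comparisons with homoharringtonine only Rps27l over vehicle had a call to lose, so results there mostly stayed uncalled. For bleomycin over vehicle, Rps27a and Rps7 were each called in 2 of the 9 fits that left out an array. Rps15 is dim and left the test under that filter.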
